A study of Mus musculus with 6 samples.

Results

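The small proline-rich protein 2 (Sprr2) family was followed in ovarian RNA of F4 inbred Swiss albino mice, as 10 genes chosen by name from the 36727 in the table: Sprr2a1, Sprr2a2, Sprr2a3, Sprr2b, Sprr2d, Sprr2e, Sprr2f, Sprr2g, Sprr2h and Sprr2k. All 10 were found. RNA sequencing libraries from polyadenylated RNA covered 3 high litter size samples (replicates 1, 3 and 4) and 3 low litter size samples (replicates 1, 2 and 5). All came from adult females aged 135 to 140 days, from tissue that the labels call estrous-phased ovary. Litter size is the only difference between the groups that the labels give, and the comparison asks which ovarian genes go with fitness. Nothing says that the samples came from separate animals, so p-values measure only the spread between these samples.

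Sprr2 proteins are short and rich in proline, glutamine and cysteine, and transglutaminases crosslink them into the cornified envelope of stratified epithelium. Simple epithelia also make them, and in the mouse uterus oestrogen induces Sprr2 genes in the lining epithelium. The genes lie beside other Sprr genes in the epidermal differentiation complex on mouse chromosome 3.

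The members occupy chromosome 3 from 92215799 to 92433925 (GRCm38, GENCODE M21), a stretch of 218 kb, all on the plus strand. GENCODE M21 gives 9 of them as protein-coding and Sprr2g as a polymorphic pseudogene. Sprr2a1 (ENSMUSG00000078664, 92215799 to 92221911) and Sprr2a2 (ENSMUSG00000068893, 92215920 to 92256724) overlap in that annotation. Sprr2f (ENSMUSG00000050635) lies from 92365187 to 92366442. The coding sequences of Sprr2f (chr3:92365896-92366123), Sprr2a1 (chr3:92219092-92219340) and Sprr2a3 (chr3:92288588-92288836) are shown because they set how far reads can be told apart. They are from GENCODE M21 transcripts on GRCm38, plus strand, without the stop codon. Capitals mark bases covered by a 31-base word found in transcripts of no other gene.
Sprr2f: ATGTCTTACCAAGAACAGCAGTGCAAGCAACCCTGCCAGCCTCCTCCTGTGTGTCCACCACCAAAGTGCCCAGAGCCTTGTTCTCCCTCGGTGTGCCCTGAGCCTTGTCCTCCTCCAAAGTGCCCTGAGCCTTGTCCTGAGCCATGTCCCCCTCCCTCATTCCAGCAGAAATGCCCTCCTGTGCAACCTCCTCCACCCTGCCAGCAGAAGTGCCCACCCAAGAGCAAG
Sprr2a1: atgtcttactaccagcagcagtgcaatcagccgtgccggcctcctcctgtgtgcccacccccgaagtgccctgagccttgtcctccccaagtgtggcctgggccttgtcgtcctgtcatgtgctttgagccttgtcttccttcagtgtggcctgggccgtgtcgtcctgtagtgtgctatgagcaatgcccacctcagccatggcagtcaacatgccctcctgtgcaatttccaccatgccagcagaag
Sprr2a3: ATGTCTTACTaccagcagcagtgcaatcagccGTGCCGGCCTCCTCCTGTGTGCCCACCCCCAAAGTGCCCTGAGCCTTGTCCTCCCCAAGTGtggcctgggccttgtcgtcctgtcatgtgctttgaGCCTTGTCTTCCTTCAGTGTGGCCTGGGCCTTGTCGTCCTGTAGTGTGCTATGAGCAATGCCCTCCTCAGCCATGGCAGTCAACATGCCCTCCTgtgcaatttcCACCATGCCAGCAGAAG

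The Sprr2a1 and Sprr2a2 coding sequences were identical over 249 bases, and Sprr2a3 matched both at 246 of 249. Sprr2f matched Sprr2a1 at 166 of 207 aligned bases and Sprr2e, its closest member by identity over all alignment columns, at 204 of 228. Over whole transcripts, 92.1% of the 31-base words of Sprr2f occurred in no other gene, against 3.1% for Sprr2a1, 2.2% for Sprr2a2 and 26.4% for Sprr2a3. For Sprr2b the share was 68.1%, for Sprr2e 78.9% and for Sprr2d 89.7%, and for Sprr2g, Sprr2h and Sprr2k it was 96.9 to 99.2%. Each Sprr2a copy also shared 63 words with genes outside the Sprr family. There were 76 such genes for Sprr2a1 and for Sprr2a2 and 68 for Sprr2a3, Rpl21 pseudogenes among them. With Rpl21 itself, a ribosomal protein gene, Sprr2a1 shared 11 of 2973 words, Sprr2a2 11 of 2852 and Sprr2a3 4 of 2852. High litter size replicate 1 had 39 Sprr2a counts, 0 of them given to Sprr2a1, beside 9864 of Rpl21. High replicate 3 had 1420 Sprr2a counts beside 2566 of Rpl21. Whether reads of Rpl21 or of these other genes add to the Sprr2a counts was not tested. The word length is the usual index setting of kallisto, and the setting behind these files was not stated. The split between the 3 Sprr2a copies is therefore uncertain, and their sum is given beside each.

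**Figure D1:**
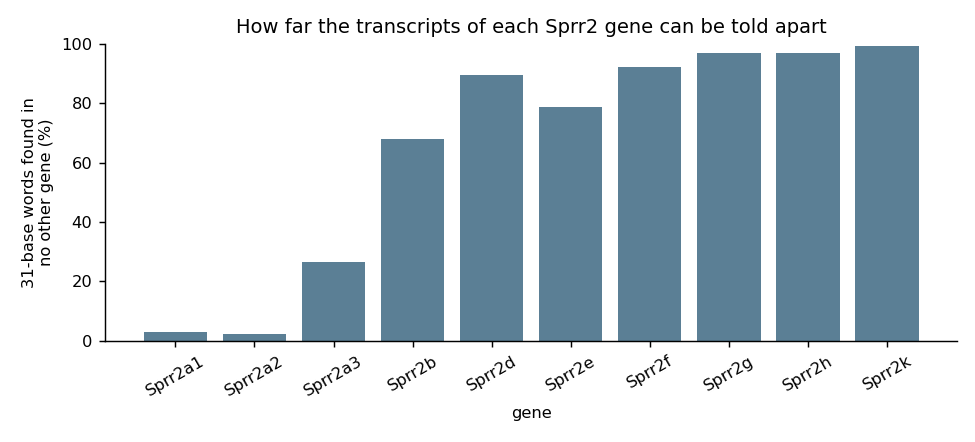
Share of the 31-base words in each gene's GENCODE M21 transcripts that occur in no other gene's transcripts (bars, percent). Sprr2a1 and Sprr2a2 reach 3.1 and 2.2%, Sprr2a3 26.4%, and the other genes 68.1% or more.

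The libraries differed in how much ovarian marker RNA they held. The summed level of 5 steroidogenic markers, among them Star and Cyp11a1, was 20.8, 31.2 and 8481 CPM across high litter size replicates 1, 3 and 4, against 716, 23.1 and 2842 CPM in low litter size replicates 1, 2 and 5. CPM is the count scaled to a common library total after TMM scaling. The 7 oocyte markers summed to 1.02, 3.0 and 50.7 CPM across the high libraries, against 11.1, 2.03 and 36.9 CPM across the low libraries. Zp2, an egg coat gene, had no count in high replicate 1 or low replicate 2. Library totals ran from 17620903 to 24758222 counts, and 3 counts, the limit that a count of 0 allows, stood for 0.117 to 0.187 CPM. In bulk tissue, fewer cells of a type and less RNA per cell cannot be told apart.

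Sprr2 RNA was abundant in all 3 low litter size libraries and spread widely among the high ones. The 10 genes summed to 350, 2085 and 14439 counts across high replicates 1, 3 and 4, or 17.9, 130.2 and 726 CPM, and to 18025, 19719 and 23949 counts across low replicates 1, 2 and 5, or 1041, 1051 and 933 CPM. The highest high library lay below the lowest low library. The means were 291 ± 381 CPM for the high group, against 1009 ± 65.4 CPM for the low group (SD, n = 3 each), a log2 ratio of -1.79. The high libraries spanned a 40.6-fold range and the low libraries a 1.13-fold range. The family made up 0.00194, 0.0109 and 0.0796% of counts across the high libraries, against 0.102, 0.103 and 0.0967% across the low libraries. Without high replicate 4 the log2 ratio was -3.81, and without high replicate 1 it was -1.23. No p-value is given for the sum, since the members were chosen together with results of these data known.

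High replicate 4 was the high library with ovarian markers well above those of the other two. Its family sum of 726 CPM stood beside 1041 and 933 CPM in low replicates 1 and 5, which also held steroidogenic markers. Low replicate 2, with 23.1 CPM of those markers, had the highest family sum of all, 1051 CPM.

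**Figure D2:**
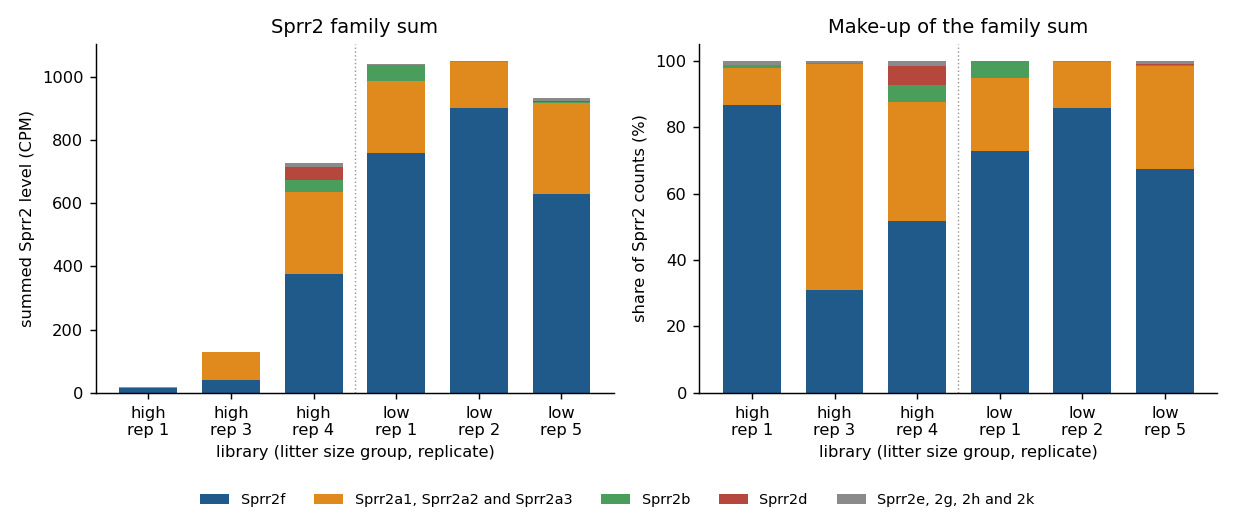
Left, the summed level of the 10 Sprr2 genes in CPM in each library, split by gene. Right, the share of Sprr2 counts in percent. High litter size libraries stand left of the dotted line and low ones right of it, and Sprr2f and the Sprr2a copies make up most of each bar.

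Sprr2f held most of the Sprr2 counts in 5 of the 6 libraries, high replicate 3 being the exception. It had 303, 644 and 7468 counts across high replicates 1, 3 and 4, or 15.5, 40.2 and 375 CPM, and 13134, 16881 and 16137 counts across low replicates 1, 2 and 5, or 759, 900.1 and 629 CPM. All 3 low libraries were above all 3 high ones. The group means were 144 ± 201 CPM for the high group, against 763 ± 136 CPM for the low group (SD, n = 3 each). The log2 fold change was -2.41 (SE 1.11), and it did not pass with edgeR's quasi-likelihood test (adjusted p = 0.385) or with DESeq2 (adjusted p = 0.122). Without high replicate 4, whose value was nearest to the low group, the log2 fold change was -4.81 (edgeR adjusted p = 0.108), and over all single-library omissions it ran from -4.81 to -1.86. Sprr2f was the only one of 7 tested members whose groups did not overlap. Of all tested genes, 10.8% had the high group wholly below the low group, and 19.5% did not overlap in either direction.

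Sprr2f made up different parts of the family from library to library. Its share of Sprr2 counts was 86.6% (exact 95% interval 82.55 to 89.96%), 30.9% (28.9 to 32.9%) and 51.7% (50.9 to 52.5%) across high replicates 1, 3 and 4. In low replicates 1, 2 and 5 it was 72.9% (72.2 to 73.5%), 85.6% (85.1 to 86.1%) and 67.4% (66.8 to 68.0%). The intervals cover counting error only. High replicate 3 was the library in which Sprr2f was not the main member, and the 2 shares above 85% came from 1 library of each group. Per kilobase of transcript, Sprr2f had 25.4, 66.0 and 617 CPM across the high libraries, against 1246, 1478 and 1033 CPM across the low libraries.

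Sprr2a1, Sprr2a2 and Sprr2a3, the near-identical copies, formed the second part of the sum. Together they had 1.99, 88.6 and 260.1 CPM across high replicates 1, 3 and 4, against 228, 147 and 288 CPM across low replicates 1, 2 and 5. High replicate 4 lay within the low range, and high replicates 1 and 3 lay below it. The means were 117 ± 131 CPM for the high group, against 221 ± 70.6 CPM for the low group (SD, n = 3 each), a log2 ratio of -0.92. The copies made up 68.1% (exact 95% interval 66.1 to 70.1%) of Sprr2 counts in high replicate 3, the largest share in any library, and 11.1% (8.045 to 14.9%) in high replicate 1, the smallest.

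Taken singly, Sprr2a2 had 1.53, 38.8 and 151 CPM across the high libraries, against 60.4, 89.7 and 180.3 CPM across the low libraries. Sprr2a3 had 0.460, 47.2 and 101 CPM across the high libraries, against 164, 54.1 and 96.7 CPM across the low libraries. Sprr2a1 had 0, 42 and 169 counts across the high libraries, against 62, 69 and 284 counts across the low libraries. For each copy high replicate 4 was inside the low range and high replicate 1 was the lowest library. The log2 fold changes were -0.79 (SE 1.24), -1.08 (SE 1.31) and -0.72 (SE 1.38) for Sprr2a2, Sprr2a3 and Sprr2a1, with adjusted p of 0.809, 0.751 and 0.845 in edgeR's quasi-likelihood test. Per kilobase, the level depends on which transcript is read: in low replicate 1 Sprr2a3 had 240.9 CPM with its shortest transcript of 682 bases and 57.0 CPM with its longest of 2880 bases, both below the 1246 CPM of Sprr2f there.

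Sprr2b, which lies between the Sprr2a copies and Sprr2d, was high in 1 library of each group. It had 3, 8 and 751 counts across high replicates 1, 3 and 4, or 0.153, 0.499 and 37.8 CPM, and 895, 3 and 79 counts across low replicates 1, 2 and 5, or 51.7, 0.160 and 3.08 CPM. High replicate 4 and low replicate 1 stood far above the other 4 libraries, and the groups overlapped. Low replicate 2, with the highest family sum, had 3 Sprr2b counts. The log2 fold change was -0.51 (SE 2.14, edgeR adjusted p = 0.933), and it was 2.95 without low replicate 1 and -5.84 without high replicate 4. Of its 31-base words, 28.7% were shared with Sprr2a1.

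Most Sprr2d counts came from high replicate 4. It had 0, 1 and 816 counts across the high libraries, against 1, 15 and 80 counts across the low libraries, or 0, 0.0624 and 41.0 CPM and 0.0578, 0.80 and 3.12 CPM. Low replicate 5 came next after high replicate 4. Its log2 fold change of 3.34 (SE 2.36, edgeR adjusted p = 0.562) was the only positive one among the tested members. It was -5.30 without high replicate 4 and -0.47 with limma voom.

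Sprr2g, annotated as a polymorphic pseudogene, had 5, 12 and 181 counts across the high libraries, against 42, 53 and 248 counts across the low libraries, or 0.256, 0.749 and 9.10 CPM and 2.43, 2.83 and 9.67 CPM. High replicate 4 and low replicate 5 were the 2 highest. The log2 fold change was -0.56 (SE 1.25, edgeR adjusted p = 0.868), and without low replicate 5 it was 0.36.

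Sprr2e, Sprr2h and Sprr2k were too low to test. Sprr2e had 0, 0 and 34 counts across the high libraries, against 1, 2 and 13 counts across the low libraries. Sprr2h had 13 counts in high replicate 4 and 0 in each of the other 5 libraries. Sprr2k had 2 counts in high replicate 4, 1 in low replicate 5 and 0 elsewhere. Sprr2e was highest in high replicate 4 and next in low replicate 5, the order also seen for Sprr2d. High replicate 4 was the library in which all 10 members had a count, against 5 members in high replicate 1 and 7 in high replicate 3, and 8, 8 and 9 across low replicates 1, 2 and 5.

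**Figure D3:**
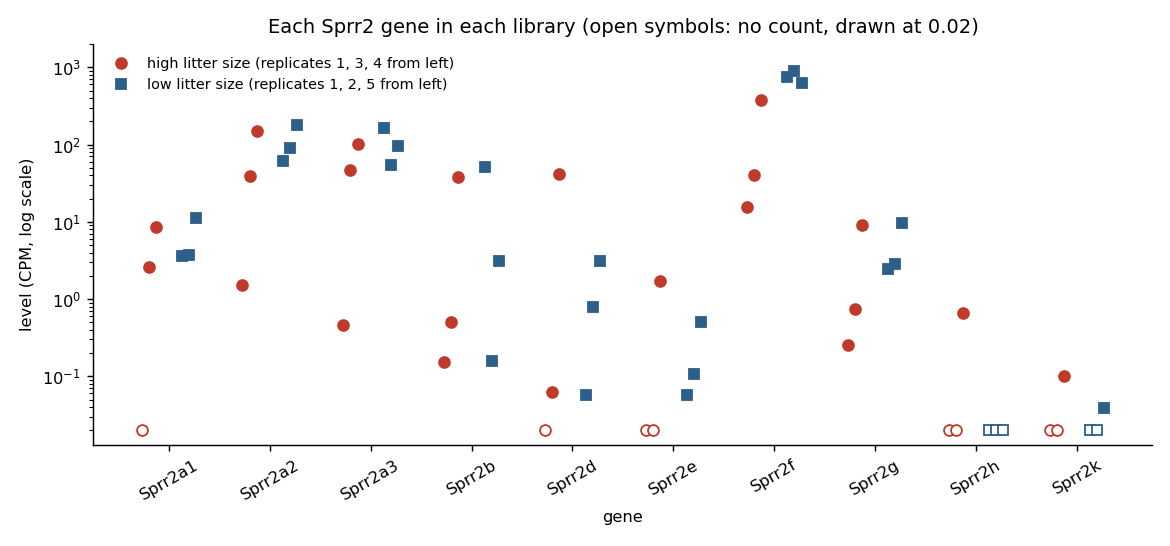
Level of each Sprr2 gene in each library, in CPM on a log scale, with high litter size as red circles and low litter size as blue squares, replicates in order from the left. Open symbols are libraries with no count, and Sprr2f is the gene whose 3 low libraries all lie above its 3 high ones.

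With edgeR, 0 of the 7 tested members passed at an adjusted p under 0.05, while 1 of 16455 tested genes passed, or 0.00608%. At an unadjusted p under 0.05 edgeR had 0 of the members and 14.4% of all tested genes. DESeq2 called 0 of the members and 6.56% of the 15633 genes for which it gave an adjusted p (4.30% lower in the high group), with 1 member below an unadjusted p of 0.05, and its adjusted p was undefined for Sprr2b, Sprr2d and Sprr2g. limma voom called 0 of the members and 3 of 16455 tested genes, with 1 member below an unadjusted p of 0.05. The share of all genes below that unadjusted p was counted for edgeR only. The log2 fold changes were negative for 6 of the 7, with a median of -0.72, where the median of all tested genes was 0.07. The 7 passed a filter on low counts and share sequence, so the median is a description. The standard errors, derived from edgeR's F statistic, ran from 1.11 to 2.36 on the log2 scale. They were larger than the fold change itself for 5 of the 7 members, which restates the result of that test. The exceptions were Sprr2f and Sprr2d.

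**Figure D4:**
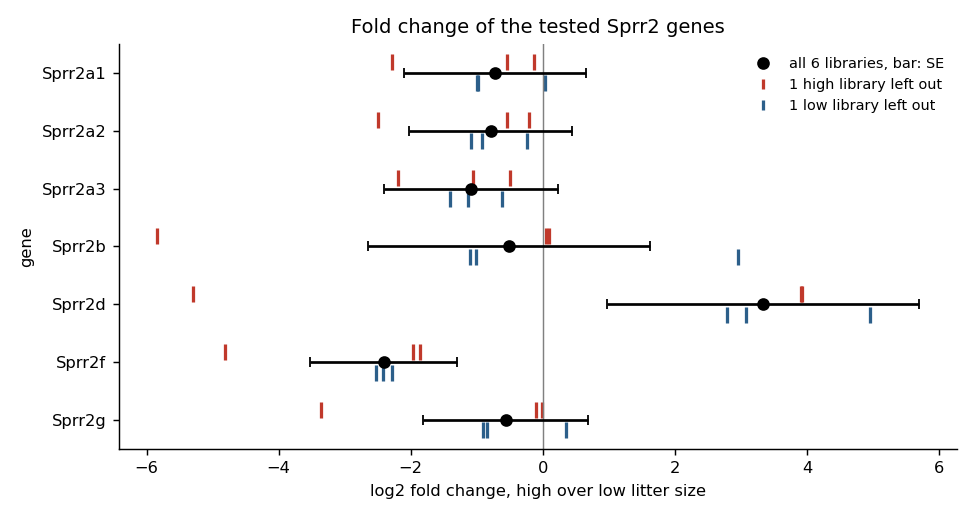
Log2 fold change, high over low litter size, of the 7 tested Sprr2 genes with all 6 libraries (black, bars are standard errors) and with 1 high (red) or 1 low (blue) library left out. The red mark farthest to the left in each row is the value without high replicate 4, from -2.19 for Sprr2a3 to -5.84 for Sprr2b.

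The stretch before the start site of 9 members was available from RefSeq (GRCm38.p6), as windows of 250 bases before to 50 after the start. The last 120 bases before the start are shown for Sprr2f (chr3:92365067-92365186), Sprr2e (chr3:92352023-92352142), Sprr2d (chr3:92339020-92339139) and Sprr2h (chr3:92385565-92385684), plus strand, since these genes share motifs at like positions and yet differed widely in counts. Capitals mark ATTTGCAT, the octamer that POU factors bind, and TATAAA, the TATA box.
Sprr2f: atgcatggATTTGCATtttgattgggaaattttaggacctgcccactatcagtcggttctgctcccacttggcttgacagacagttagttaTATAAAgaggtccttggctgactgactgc
Sprr2e: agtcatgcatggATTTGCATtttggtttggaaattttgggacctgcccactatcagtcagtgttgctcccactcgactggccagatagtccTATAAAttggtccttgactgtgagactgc
Sprr2d: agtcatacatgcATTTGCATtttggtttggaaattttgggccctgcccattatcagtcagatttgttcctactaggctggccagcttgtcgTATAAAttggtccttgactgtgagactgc
Sprr2h: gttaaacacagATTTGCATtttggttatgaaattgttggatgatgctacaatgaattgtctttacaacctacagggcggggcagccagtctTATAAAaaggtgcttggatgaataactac

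In these 120 bases Sprr2f matched Sprr2e at 84.5% of aligned positions, Sprr2d at 78.4% and Sprr2h at 66.4%. Searched on both strands, ATTTGCAT occurred in 6 of 9 windows (Sprr2b, Sprr2d, Sprr2e, Sprr2f, Sprr2h and Sprr2k) and in 1.74% of the 32851 windows of all genes. Its first base lay at -112 from the start in Sprr2f and at -108 or -109 in the other 5. TATAAA began at -29 in the same 6 genes and occurred in 13.62% of all windows, and TGANTCA, the AP-1 site, lay between -198 and -182 in them and occurred in 7.81% of all windows. Pairs of these 6 genes matched at 63.0 to 89.2% of aligned positions over the 120 bases. They are close paralogs, so the 6 windows are not independent of each other. The octamer was added to the search after the windows were seen. The palindromic oestrogen response element, the ETS site form CGGAAG and the Grainyhead site AACCGGTT occurred in 0 of the 9 windows and in 0.07, 16.85 and 0.15% of all windows. Other forms of the ETS site, which share the shorter core GGAA, were not searched, and GGAA occurs in the Sprr2f, Sprr2e and Sprr2d stretches shown. The nuclear receptor site AGGTCA, which overlaps one arm of that palindrome, occurred in Sprr2f, and in 16.26% of all windows. CACCC, the box of Klf factors, occurred in 4 windows of members and 57.52% of all, and TTCNNNGAA, the STAT site, in 1 and 8.30%. The RefSeq windows of the Sprr2a copies held none of the octamer, TATAAA or TGANTCA. The starts of the Sprr2a copies and of Sprr2b differ between RefSeq and GENCODE M21, and positions here are from the RefSeq start.

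Of the 6 other Sprr genes listed, 1 was abundant enough to test. Sprr1a, another cornified envelope precursor, had 29, 750 and 567 counts across high replicates 1, 3 and 4, against 108, 269 and 155 counts across low replicates 1, 2 and 5, or 1.48, 46.8 and 28.5 CPM and 6.24, 14.3 and 6.04 CPM. Its highest library was high replicate 3, where the family sum was 130.2 CPM, and its log2 fold change was 1.53 (SE 1.03, edgeR adjusted p = 0.543). Sprr3, found in oesophageal and other wet stratified epithelium, had 168 counts in high replicate 4 and 1 or 0 elsewhere. Sprr1b had 3 counts in high replicate 4 and Sprr4 had 3 in low replicate 1, and 0 elsewhere. Sprr2i had 2 counts in all, and Sprr2j-ps had 0.

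Of 37 further epidermal differentiation complex genes, 4 were abundant enough to test. With edgeR 0 of these passed (1 at an unadjusted p under 0.05, against 14.4% of all tested genes), and the median log2 fold change was 0.11. The high group was wholly above the low group for 2 (Ivl and Tchh), where 19.5% of all tested genes did not overlap in either direction. DESeq2 also called 0, against 6.56% of all genes with an adjusted p, but its adjusted p was undefined for Ivl and Flg. Ivl, the envelope protein involucrin, had 0.869, 16.5 and 0.654 CPM across the high libraries, against 0.289, 0.373 and 0.234 CPM across the low libraries (log2 fold change 4.31, edgeR adjusted p = 0.28). Among the S100 genes of the complex, 0 of 12 passed with edgeR (2 at an unadjusted p under 0.05, against 14.4% of all tested genes). DESeq2 called 2, against 6.56% of all genes with an adjusted p. S100a8, a neutrophil and keratinocyte calcium-binding protein, had 0.869, 29.9 and 15.8 CPM across the high libraries, against 0.289, 0.0533 and 0.546 CPM across the low libraries (log2 fold change 5.64, edgeR adjusted p = 0.198, DESeq2 adjusted p = 6.22e-05). Both had their highest value in high replicate 3, unlike Sprr2f.

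Of 13 tested genes listed as crosslinking or anchoring the envelope, 0 passed with edgeR. At an unadjusted p under 0.05 edgeR had 7 of them, against 14.4% of all tested genes. DESeq2 called 4 (1 higher, 3 lower), against 6.56% of all genes with an adjusted p. Of the 13, 9 had negative log2 fold changes, and the median was -0.60. Tgm2, a transglutaminase, had 691, 617 and 726 CPM across the high libraries, against 2481, 2038 and 1215 CPM across the low libraries (log2 fold change -1.50, edgeR adjusted p = 0.203, DESeq2 adjusted p = 0.000622). Dsc2, a desmosomal cadherin, had 12.0, 12.9 and 45.3 CPM across the high libraries, against 281, 244 and 64.0 CPM across the low libraries. Both had groups that did not overlap, and in both the lowest of the low libraries was replicate 5. Pkp1, another desmosomal gene, went the other way, also without overlap. It had 6.13, 4.62 and 10.1 CPM across the high libraries, against 1.68, 0.160 and 0.896 CPM across the low libraries. Its log2 fold change was 2.93 (edgeR adjusted p = 0.224, DESeq2 adjusted p = 0.0051).

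Of 20 transcription factors of epithelium, 0 passed with edgeR (6 at an unadjusted p under 0.05, against 14.4% of all tested genes). DESeq2 called 5 (1 higher, 4 lower), against 6.56% of all genes with an adjusted p. Of the 20, 13 had negative log2 fold changes and the median was -0.38. The gene of smallest p, Trp63, the master factor of stratified epithelium, had 9.40, 14.7 and 11.4 CPM across the high libraries, against 0.751, 0.587 and 1.25 CPM across the low libraries (log2 fold change 3.76, edgeR adjusted p = 0.14, DESeq2 adjusted p = 4.96e-14). Its groups did not overlap, with the high group above, opposite to Sprr2f. Elf3, an ETS factor of epithelial cells, had 22.6, 36.6 and 107 CPM across the high libraries, against 577, 625 and 207 CPM across the low libraries (log2 fold change -3.08, edgeR adjusted p = 0.19, DESeq2 adjusted p = 0.000425). Among the high libraries it was in the same order as Sprr2f. Klf4, a factor of barrier epithelium, had 38.1, 51.1 and 32.9 CPM across the high libraries, against 173, 181 and 102 CPM across the low libraries (log2 fold change -1.90, edgeR adjusted p = 0.14, DESeq2 adjusted p = 7.7e-06). Of 21 tested genes listed as oestrogen-induced in uterine epithelium, 0 passed with edgeR (12 at an unadjusted p under 0.05, against 14.4% of all tested genes). Of the 21, 17 had negative log2 fold changes and the median was -2.26. Padi1, an arginine deiminase, had 40.6, 75.5 and 231 CPM across the high libraries, against 2768, 2552 and 1141 CPM across the low libraries (log2 fold change -4.22, edgeR adjusted p = 0.162, DESeq2 adjusted p = 1.95e-07). DESeq2 called 8 genes of that list lower and 1 higher, against 6.56% of all genes with an adjusted p in either direction.

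Markers of epithelia differed between libraries beside the Sprr2 sum. The 8 uterine epithelium markers summed to 235, 1069 and 5128 CPM across high replicates 1, 3 and 4, against 20890, 9321 and 4612 CPM across low replicates 1, 2 and 5. Among the high libraries this was the order of the Sprr2 sum, and high replicate 4 was above low replicate 5. Of the 8, 6 had negative and 2 positive log2 fold changes. With edgeR 0 of them passed, and DESeq2 called 3 lower, against 4.30% of all genes with an adjusted p. The 7 general epithelium markers, among them Krt8 and Epcam, summed to 426, 444 and 773 CPM across the high libraries, against 3618, 2116 and 1481 CPM across the low libraries. Of the 7, 6 had the high group wholly below the low group, against 10.8% of all tested genes. With edgeR 0 of the 7 passed, and DESeq2 called 6 lower, against 4.30% of all genes with an adjusted p. The 10 stratified epithelium markers summed to 200.3, 107 and 800.3 CPM across the high libraries, against 131, 76.5 and 46.15 CPM across the low libraries. These sums overlapped, and most of each low sum was Sfn. It had 7.62, 10.2 and 22.3 CPM across the high libraries, against 101, 45.5 and 29.4 CPM across the low libraries. Of the 10, 9 had positive log2 fold changes, with a median of 3.56. The high group was wholly above the low group for 3 and wholly below it for 1, where 19.5% of all tested genes did not overlap in either direction. With edgeR 0 of the 10 passed (5 at an unadjusted p under 0.05, against 14.4% of all tested genes). DESeq2 called 3 higher (Trp63, Krt15 and Krt5) and 1 lower (Sfn), against 6.56% of all genes with an adjusted p. The 5 oviduct markers, among them Foxj1 and Ovgp1, summed to 52.2, 167 and 1581 CPM across the high libraries, against 75.8, 59.0 and 475 CPM across the low libraries. In high replicates 3 and 4 and low replicate 5 most of that sum was Ovgp1. Of the 5, 4 had positive log2 fold changes. Pax8 was the exception, with 21.5, 10.9 and 20.2 CPM across the high libraries, against 58.5, 38.7 and 23.3 CPM across the low libraries. The 5 Mullerian and uterine stroma markers summed to 658, 97.8 and 100.1 CPM across the high libraries, against 218, 218 and 294 CPM across the low libraries. The 6 granulosa markers summed to 71.05, 73.7 and 397 CPM across the high libraries, against 771, 653 and 1069 CPM across the low libraries. Most of that sum in 5 of the 6 libraries was Inhbb, an inhibin and activin subunit, with 47.0, 60.8 and 128 CPM across the high libraries, against 545, 629 and 888 CPM across the low libraries. The groups overlapped for the other 5 granulosa markers, Foxl2, Cyp19a1 and Amh among them. No listed epithelial marker was at 0 in all libraries. The part of these cell types in the Sprr2 values was not tested.

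**Figure D5:**
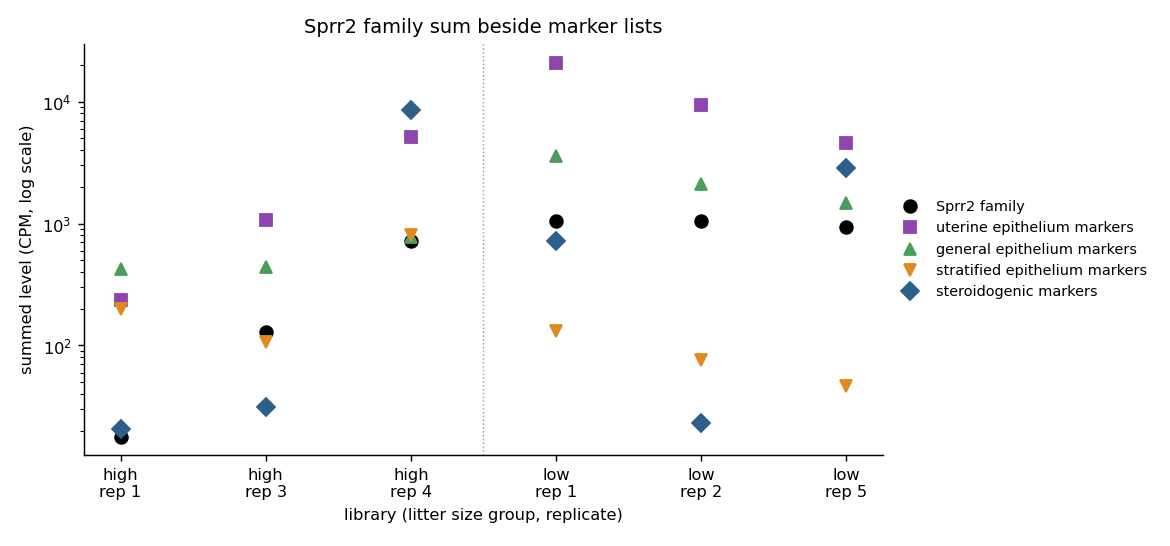
Summed level in CPM, on a log scale, of the Sprr2 family (black) and of 4 marker lists in each library, with high litter size libraries left of the dotted line. General epithelium markers lie above the Sprr2 sum in every library, and steroidogenic markers range from 20.8 to 8481 CPM within the high group.

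The genes whose log2 CPM followed the family sum most closely over the 6 libraries, among 12185 ranked, were Pdcd6, Cftr, Tspan8, Mal2, Qars, Rab11fip4, Nsmce4a and Rap1b, with Pearson's r from 0.978 to 0.992 and Spearman's rho from 0.60 to 1. Cftr, the chloride channel of secretory epithelium, had 1.12, 8.12 and 47.2 CPM across the high libraries, against 147, 119 and 67.7 CPM across the low libraries (r = 0.988). Mal2, a protein of apical transport, had 10.4, 28.6 and 88.5 CPM across the high libraries, against 204, 176 and 135 CPM across the low libraries (r = 0.981). Without high replicates 1 and 3, the libraries farthest from the median sum, r was 0.985 for Rab11fip4, 0.972 for Mal2, 0.924 for Cftr, 0.914 for Qars and 0.747 for Tspan8. It was 0.642 for Pdcd6, -0.289 for Nsmce4a and -0.46 for Rap1b, so the last 3 rest on those 2 libraries. The points share library totals and scaling, and r is a description.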

How the data were processed

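The authors deposited whole-number counts per Ensembl gene for 6 libraries. Per the submitters' processing notes, Trim Galore, kallisto, DESeq2 and GRCm38 were named, without versions. Whether the counts are rounded kallisto estimates is not stated, and no source used here gives the annotation release. The labels state poly(A) selection and a TruSeq kit. kallisto divides reads between similar transcripts, so values of close copies are uncertain.

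Groups came from the labelled litter size. Symbols came from a table of gene names for 35869 of 36727 genes, and gene positions and transcripts from GENCODE M21. Genes were kept by filterByExpr (minimum count 10, minimum total 15), scaled by TMM and tested, high over low, with the quasi-likelihood test of edgeR 4.0.16 in R 4.3.3, with Benjamini-Hochberg adjustment over 16455 genes and a threshold of 0.05. No covariate was fitted. Each standard error (SE) was the log2 fold change, without its sign, divided by the square root of the F statistic of that test. Shared words were counted on both strands in Python 3.11.15, and coding sequences aligned with Biopython 1.88. Family sums were described without a test. The limit for a count of 0 was 3 counts.

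The members, gene lists and motifs were chosen with earlier results of these data known. Named genes were all 10 members, members of each list among its 4 of smallest p, and the 8 non-members most like the family sum, with a mean of at least 5 CPM and a prior count of 2 on the log scale. Other named list members serve as examples of what a list holds. Alternatives were DESeq2 1.42.0, limma 3.58.1 voom, other scalings and filters, robust dispersion, the members as 1 row, and each library left out.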

Additional observations from a re-analysis of the deposited data

How the results depend on the processing

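No paired analysis was possible because number 1 is the only label found in both litter size groups. For all genes tested, edgeR called 1, DESeq2 1026 (354 higher, 672 lower), limma voom 3 and library size alone 2, while RLE scaling, both filters, robust dispersion and the members as 1 row gave 1. Leaving out 1 library gave 0 to 1. The members as 1 row give no value for single members. The log2 ratio of the family sum ran from -3.81 to -1.23 with 1 library left out, -3.81 being the value without high replicate 4. It was -1.77 with RLE scaling, -1.71 with library size alone and -3.05 with geometric means. No member passed under any of these settings. Sprr2f kept a negative log2 fold change in all of them. Signs changed for Sprr2d with limma voom (-0.47) and, with 1 library left out, for Sprr2d (-5.30 to 4.96), Sprr2b (-5.84 to 2.95), Sprr2a1 (-2.29 to 0.029) and Sprr2g (-3.35 to 0.36), and the cause was not tested. Sprr2d was not kept at 1 CPM in 3 libraries. Depth limits Sprr2e, Sprr2h and Sprr2k to counts.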

Other observations

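The split among the Sprr2a copies varied between libraries. Sprr2a3 over Sprr2a2 counts gave 0.30 (95% counting interval 0.125 to 0.648), 1.22 (1.09 to 1.35) and 0.671 (0.634 to 0.710) in high replicates 1, 3 and 4, and 2.72 (2.53 to 2.92), 0.603 (0.557 to 0.652) and 0.536 (0.510 to 0.563) in low replicates 1, 2 and 5. Low replicate 1 thus stood above the other 5 libraries, and it was also the library with the most Sprr2b counts. Sprr2a2 over Sprr2a1 counts ran from 14.8 to 24.4 in the 5 libraries with a Sprr2a1 count. With 97.8% of the 31-base words of Sprr2a2 shared with Sprr2a1, both ratios rest on a Sprr2a2 count with few distinguishing words. The intervals leave out error in dividing reads between the copies.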
